A study of Caenorhabditis elegans with 6 samples.

Results

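The central segment of chromosome V of *Caenorhabditis elegans* was described in 6 ChIC-seq libraries of body wall muscle. It was taken as every window of chromosome V with a midpoint from 5.9 Mb to below 16.5 Mb in the ce10 assembly, which gave 10600 of the 100293 windows in the series (chrV:5900114-16500015). These windows are about 1 kb wide and make up 50.7% of chromosome V and 10.6% of all windows. The rest of the chromosome, 5901 windows to the left and 4425 to the right, is called the left and right arm. The study's own border positions for chromosome V lie inside the segment and divide it into a left flank of 2225 windows (chrV:5900114-8125093), an inner part of 5724 (chrV:8125094-13849040) and a right flank of 2651 (chrV:13849041-16500015).

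ChIC-seq reads out the DNA that micrococcal nuclease (MNase), tethered through protein A to an antibody against a histone mark, cuts free around that mark. All cells were muscle sorted from third-stage (L3) larvae grown after synchronization at the first larval stage. The wild type (WT) was N2 (Bristol), profiled for H3K9me2, H3K9me3 and H3K27ac, and the mutant was *met-2(n4256) III*, profiled for H3K27ac. Each genotype had an MNase control without antibody, so that the 6 groups held 1 library each and the spread between replicates is unknown for every difference given. Per the study's methods, muscle cells were recognised by red fluorescent protein driven by the *myo-3* promoter from the integrated array *gwIs4*, a transgene that the sample labels do not name. H3K9me2 or H3K9me3 in *met-2* muscle was not analysed here. The labelled tissue was not checked against muscle genes, because no gene annotation of ce10 was used.

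The autosomes of *C. elegans* have gene-dense centres rich in widely expressed genes, and arms that hold more repeats, more recombination and more methylation of lysine 9 on histone H3. MET-2 is the SETDB1-like enzyme that places the first methyl groups of H3K9me2, a mark of silent chromatin, and SET-25 is the enzyme that makes H3K9me3. Acetylation of lysine 27 (H3K27ac) marks active promoters and enhancers.

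The segment held 2623492 of 23850236 WT H3K9me2 reads and 3157892 of 28519008 WT H3K9me3 reads. Of the H3K27ac reads it held 1504339 of 13658228 (WT) and 2565995 of 23481832 (*met-2*). The WT control had 1041473 of its 9880324 reads there, and the *met-2* control 282574 of only 2475550. The median count of a window with a read was 210, 281, 133 and 231 for these 4 marks in that order, and 74 (WT) and 23 (*met-2*) for the controls. A read floor of 3 corresponded to a share of 1.05e-05% of the deepest library and 0.000121% of the shallowest. The *met-2* control stood apart in depth, and over the 10483 windows of the segment with a read the controls ranked the windows in a similar order only weakly (Spearman rho 0.336, against 0.878 between the H3K27ac libraries). For this reason windows were described over the control of the same genotype and also over both controls.

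Of the 6 libraries, those of H3K27ac differed most between the segment and the arms of V, in both genotypes. Reads per window in the segment over the arms were 1.52 (WT) and 1.41 (*met-2*) for H3K27ac. The same ratio of means was 1.16 for H3K9me2 and 1.04 for H3K9me3, and 1.15 (WT) and 1.24 (*met-2*) for the controls. By these means the H3K9me2 ratio was within the range of the controls and the H3K9me3 ratio below it. A block of 3 windows with extreme counts in every library (chrV:12234056-12237055) raised all of these means. Without the block the ratios were 1.47 (WT) and 1.36 (*met-2*) for H3K27ac, 1.13 for H3K9me2, 1.00 for H3K9me3, and 1.12 and 1.19 in the controls. Taken over medians, the WT H3K27ac ratio was 1.53. The median ratio of H3K9me2 was 1.12, below the 1.16 (WT) and 1.15 (*met-2*) of the controls.

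The H3K27ac of the segment was higher over the right arm than over the left arm. The median ratio over the right arm was 1.77 in WT and 1.55 in the mutant, and over the left arm 1.40 and 1.30. For H3K9me3 the ratio was 0.986 over the right arm and 1.07 over the left arm, so the segment lay below the former and above the latter. The segment was also lower in H3K27ac than the centres of chromosomes I to IV, with a median ratio of 0.836 in WT and 0.875 in *met-2*. That of H3K9me3 was 1.03 and that of H3K9me2 was 0.968. These centres are those of the study's borders, and the cut of chromosome V used here is wider.

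**Figure D1:**
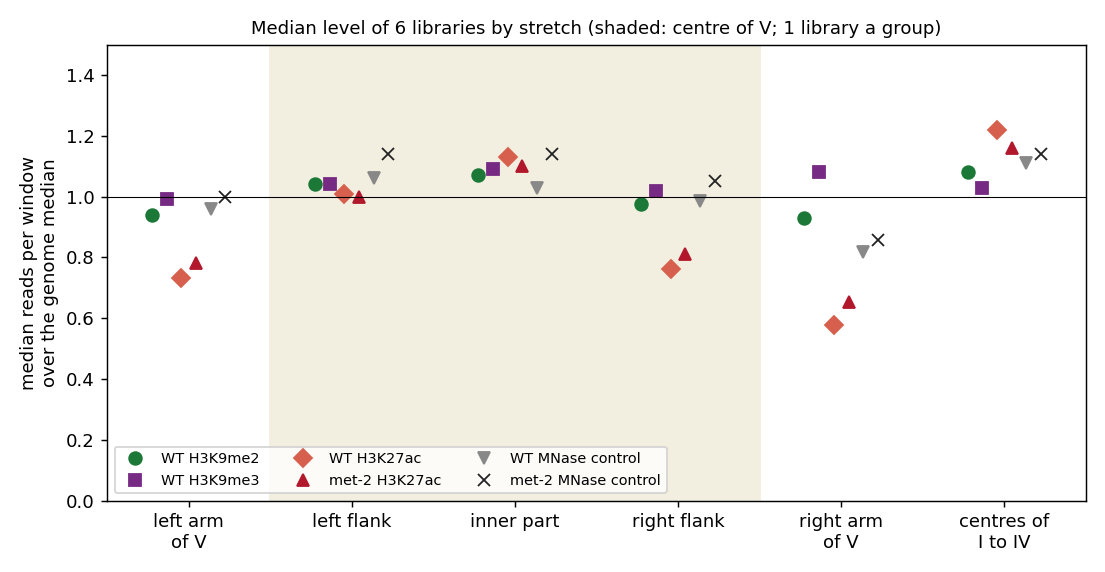
Median scaled reads per window over the genome median (y axis, from 0) in the arms of V, the 3 parts of the centre of V and the centres of chromosomes I to IV (x axis), 1 point per library. H3K27ac lies at 1.13 (WT) and 1.10 (met-2) in the inner part and at 0.762 and 0.811 in the right flank, while H3K9me2 and H3K9me3 stay between 0.975 and 1.09 across the 3 parts.

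Within the segment H3K27ac was not even, and its fall lay in the right flank. Median WT H3K27ac was 163 scaled reads per window in the left flank, 183 in the inner part and 123 in the right flank. The *met-2* values were 166, 181 and 134. The inner part was thus 1.12 times the left flank and 1.48 times the right flank in WT, and 1.10 and 1.36 times in *met-2*. H3K9me2 was 1.03 and 1.10 times, H3K9me3 1.05 and 1.07 times, the WT control 0.974 and 1.04 times and the *met-2* control 1 and 1.09 times. The right flank remained 1.32 times the right arm in WT H3K27ac, and the left flank was 1.38 times the left arm.

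In consecutive steps of 1 Mb from the left border, median WT H3K27ac over the genome median was 1.09, 0.942, 1.04, 1.09, 1.13 and 1.17 in the first 6 steps. It was highest in the next step at 1.22 (chrV:11900059-12900048). It then went to 1.07, 1.00, 0.677 and 0.569, the last step being shorter than the others. The *met-2* library had the same highest step at 1.17 and ended at 0.761 and 0.662. H3K9me3 stayed between 1.01 and 1.14 and H3K9me2 between 0.945 and 1.10 over all 11 steps, and the controls lay between 0.944 and 1.19.

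At 100 kb the H3K27ac libraries placed their peaks and troughs in nearly the same bins. These values are bin means over the mean of chromosome V, and the bin of the block and the bin of a gap without reads were set aside, leaving 104 bins. WT H3K27ac ran from 0.554 to 1.57 with a coefficient of variation of 19.3%, and *met-2* H3K27ac from 0.593 to 1.47 with 15.7%. H3K9me3 was the most even, from 0.757 to 1.15 with 7.83%, and H3K9me2 ran from 0.790 to 1.37 with 10.1%. The WT control varied by 14.1% and the *met-2* control by 9.40%, so the spread of H3K9me2 and H3K9me3 did not exceed that of the WT control.

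Both H3K27ac libraries were highest at chrV:10000076-10100074, with 1.57 in WT and 1.47 in *met-2*, and next at chrV:10800069-10900067, with 1.54 and 1.41. The lowest bins were chrV:16200019-16300017 in WT at 0.554 and chrV:15900022-16000020 in *met-2* at 0.593, the latter at 0.560 in WT. H3K9me3 was highest at chrV:8900086-9000085 (1.15) and lowest at chrV:15500025-15600023 (0.757). H3K9me2 was highest at chrV:13300046-13400044 (1.37) and lowest at chrV:15900022-16000020 (0.790). The WT control had its highest bin near the left border at chrV:6200111-6300110 (1.56), where the *met-2* control was at 1.33.

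**Figure D2:**
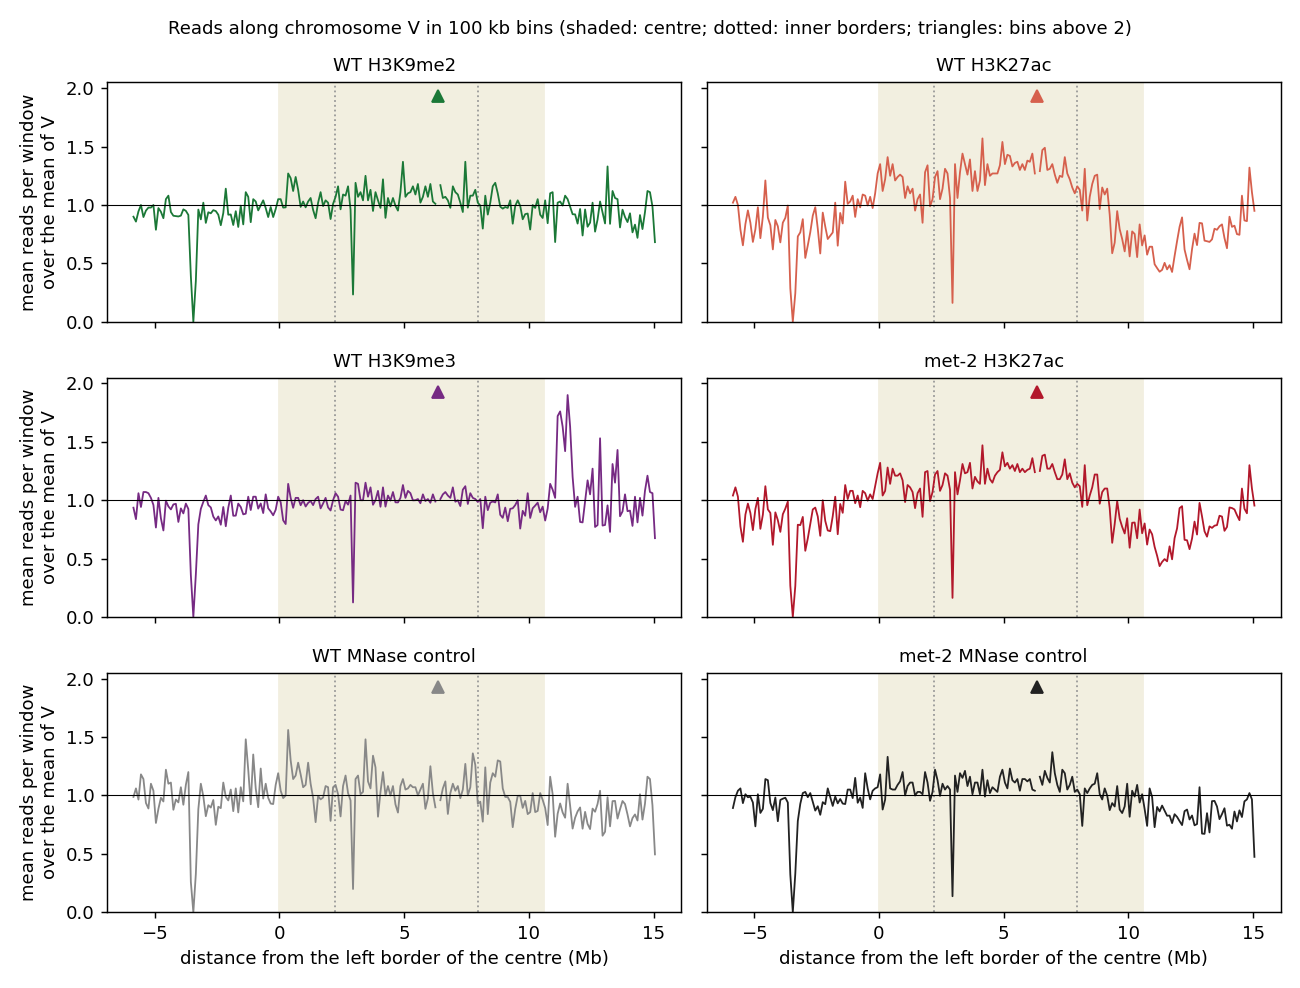
Mean scaled reads per window in 100 kb bins over the mean of chromosome V (y axis) against the distance from the left border of the centre in Mb (x axis), 1 panel per library; the centre is shaded, dotted lines mark the inner borders and a triangle marks the bin of the 3-window block, which is off the scale at 4.05 to 5.71. H3K27ac rises above 1 over most of the shaded stretch and falls before its right end, and all 6 libraries drop in the bin of the gap.

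Between adjacent windows the H3K27ac profile was the smoothest. The rho between a window and the next, over 10456 pairs in the segment, was 0.433 (WT) and 0.405 (*met-2*) for H3K27ac. It was 0.227 for H3K9me3, 0.185 for H3K9me2, and 0.197 (WT) and 0.142 (*met-2*) for the controls. Across the 106 bins of 100 kb the H3K27ac libraries correlated at rho 0.940 and the controls at 0.359. These are descriptions across windows and bins of the same libraries, which differ in depth, and neighbouring windows are not independent.

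Enrichment of a mark was its log2 scaled reads minus those of a control, after adding 8 to each, and a window was called enriched above 0.5. The segment was close to the whole table in the share of enriched windows for the marks of WT. Over the WT control, 3918 windows (37.4%, Wilson interval 36.5% to 38.3%) were enriched for H3K9me2, against 36.1% of all 99485 windows with a read. For H3K9me3 the count was 4582 (43.7%, against 42.7%) and WT H3K27ac had 4351 (41.5%, against 41.8%). The mutant H3K27ac library, over its own control, had 2700 (25.8%, against 31.0%). Of the windows past 0.5 in either direction, 64.2%, 69.8%, 67.0% and 54.3% were above for the 4 marks in that order. With TMM scaling these were 53.8%, 53.8%, 50.5% and 45.2%, and with DESeq2 size factors 53.3%, 52.5%, 47.8% and 43.1%. The median enrichment of the segment minus that of the arms of V was -0.0092 in the H3K9me2 library, -0.16 in the H3K9me3 library, and 0.33 (WT) and 0.18 (*met-2*) in those of H3K27ac. The difference for H3K9me2 turned to 0.15, and that for H3K9me3 to 0.055, when no control was subtracted.

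Fewer windows were enriched over both controls at once than over the control of the same genotype, as the rule makes sure. Over both controls the segment held 1359 H3K9me2 windows (13.0%, against 14.4% of all windows) and 1476 H3K9me3 windows (14.1%, against 16.2%). WT H3K27ac had 1360 (13.0%, against 15.7%), and the mutant H3K27ac library had 1407 (13.4%, against 17.1%). The arms of V had 15.8% for H3K9me2 and 24.4% for H3K9me3, of which the right arm alone had 34.4% for H3K9me3, but 8.90% (WT) and 11.7% (*met-2*) for H3K27ac. The centres of I to IV had 13.3% for H3K9me2, 12.0% for H3K9me3, and 20.1% and 18.3% for H3K27ac. A split of windows past 0.5 took the lower of a window's enrichments over the controls. Above thus meant above 0.5 over both controls, and below meant past 0.5 downward over either control. By this uneven rule 23.8%, 29.9%, 26.7% and 28.0% of such windows of the segment were above for the 4 marks. The shares became 21.2%, 18.8%, 16.7% and 16.4% with TMM scaling and 21.4%, 18.4%, 14.9% and 14.8% with DESeq2 size factors.

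In the inner part 905 of 5641 windows were enriched for WT H3K27ac over both controls, in the left flank 268 of 2222 (12.1%) and in the right flank 187 of 2620 (7.14%). The share for H3K9me3 was 14.0%, 13.4% and 14.8% in the same order, and for H3K9me2 13.3%, 11.9% and 13.1%. The H3K27ac share thus fell towards the right border, and the H3K9 shares were nearly level.

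Windows above the threshold were shared between marks, and the marks share their controls. H3K9me2 and H3K9me3 had 614 windows in common, 45.2% of the former and 41.6% of the latter. WT H3K27ac shared 790 windows with H3K9me3, 53.5% of the H3K9me3 windows and 58.1% of the H3K27ac windows. It shared 551 with H3K9me2, 40.5% of either list. In all windows these shares were 46.2% and 41.1%, 56.2% and 58.2%, and 42.9% and 39.5%.

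Most of the windows highest over both controls had control counts below the segment's medians of 74 (WT) and 23 (*met-2*), the exception being chrV:10789069-10790068. For H3K9me2 the first was chrV:7443100-7444099 in the left flank, with 106 H3K9me2, 30 H3K9me3, 12 WT H3K27ac and 20 *met-2* H3K27ac reads and none in either control. Its H3K9me2 was at least 14.6-fold above the WT control and at least 3.67-fold above the *met-2* control, taking a floor of 3 reads for a control library without reads. The H3K9me2 window chrV:6831106-6832105, also in the left flank, had 537 H3K9me2, 134 H3K9me3, 45 WT H3K27ac and 60 *met-2* H3K27ac reads against 27 and 2 in the WT and *met-2* controls. This was 8.24-fold (95% exact interval 5.60 to 12.6) over the WT control and 27.9-fold (7.68 to 231) over the *met-2* control. This window and those named below for a mark were picked as highest by the same reads, so their intervals do not test enrichment.

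The best-measured H3K9me2 window was chrV:10789069-10790068 in the inner part, with 2335 H3K9me2 reads. It had 453 H3K9me3, 230 WT H3K27ac and 361 *met-2* H3K27ac reads, and 137 and 36 in the WT and *met-2* controls. H3K9me2 was 7.06-fold (5.94 to 8.45) above the WT control and 6.73-fold (4.85 to 9.64) above the *met-2* control. In these 3 windows H3K9me2 stood above the other 3 antibody libraries as well as above the controls, also in reads scaled for depth.

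For H3K9me3 the highest window was chrV:15210028-15211027 in the right flank, next to a run of windows without reads. It held 195 H3K9me3 reads, 30 H3K9me2, 32 WT H3K27ac and 62 *met-2* H3K27ac reads, with 4 and 1 in the controls. H3K9me3 was 16.9-fold over either control, with intervals of 6.49 to 62.6 and 3.00 to 672. The window chrV:12438054-12439053 held 237 H3K9me3 reads against 9 and 3, a ratio of 9.12 (4.73 to 20.2) and 6.86 (2.32 to 33.5), with 89 H3K9me2, 67 WT H3K27ac and 88 *met-2* H3K27ac reads. The wide intervals come from the control counts.

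One window of the inner part, chrV:9048085-9049084, was among the highest 3 for both H3K9me3 and WT H3K27ac. It held 103 H3K9me2, 182 H3K9me3, 77 WT H3K27ac and 88 *met-2* H3K27ac reads against 5 and 2 control reads, 12.6-fold (5.31 to 39.3) for H3K9me3 and 11.1-fold (4.57 to 35.3) for H3K27ac over the WT control. The other H3K27ac windows were chrV:11319064-11320063, with 76 WT H3K27ac and 121 *met-2* H3K27ac reads against 7 and 1, and chrV:10026076-10027075. The last held 259 H3K9me2, 235 H3K9me3, 243 WT H3K27ac and 356 *met-2* H3K27ac reads against 31 and 7. Its WT H3K27ac was 5.67-fold (3.89 to 8.53) over the WT control and 6.29-fold (3.01 to 15.8) over the *met-2* control, and the bin around it was the highest of the segment for H3K27ac once the bin of the block was set aside.

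The 2221 windows with H3K9me2, H3K9me3 or both above 0.5 over both controls fell into 1667 runs of adjacent windows, of which 75.3% were single windows and 29 (1.74%) had 4 or more. Over all windows 71.9% of runs were single windows and 3.23% had 4 or more, and in the arms of V 66.7% and 6.41%, where the longest had 18. The longest in the segment had 8 windows, in the left flank at chrV:7910096-7918095. It held 1026 H3K9me2, 2046 H3K9me3, 441 WT H3K27ac and 986 *met-2* H3K27ac reads against 265 and 98 in the controls. H3K9me3 there was 0.969 times the genome median per window and the WT control 0.460 times, so this run stood out by its low controls and low H3K27ac (0.424 times in WT).

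The next longest runs had 6 windows each and lay in the inner part. At chrV:11594061-11600060 H3K9me3 was 1.04 times the genome median per window and the WT and *met-2* controls 0.521 and 0.579 times. At chrV:12421054-12427053 the marks themselves were high, with H3K9me2 at 1.58, H3K9me3 at 1.42, WT H3K27ac at 1.50 and *met-2* H3K27ac at 1.53 times the genome median, and the controls at 0.968 and 0.857 times.

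H3K27ac in *met-2* was compared with WT from the H3K27ac reads alone, as the difference of their log2 scaled reads plus 8, to leave out the shallow control. By this measure the segment as a whole moved little and its right flank more. The median change was 0.0037 on the log2 scale over the segment, 0.10 over the arms of V and 0.0145 over all windows. In the parts it was -0.0081 in the left flank, -0.0245 in the inner part and 0.0905 in the right flank. The inner part of V was closer to 0 than the centres of I to IV, whose median change was -0.060.

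In the segment 601 windows were higher by more than 0.5 in *met-2* (5.73%, against 7.16% of all windows) and 304 were lower (2.90%, against 3.07%). In the arms of V 13.0% were higher and 2.95% lower. Within the segment 11.4% (Wilson interval 10.2% to 12.6%) of right-flank windows were higher, against 5.04% (4.21% to 6.03%) in the left flank and 3.39% (2.94% to 3.89%) in the inner part. The share of lower windows was 2.33%, 3.56% and 2.91% in the same order. The intervals treat windows as independent, which neighbouring windows are not, and do not test the difference between the parts. Of the 26 bins of 100 kb in the right flank, 24 had a median change above 0, against 53 of all 106 bins.

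**Figure D3:**
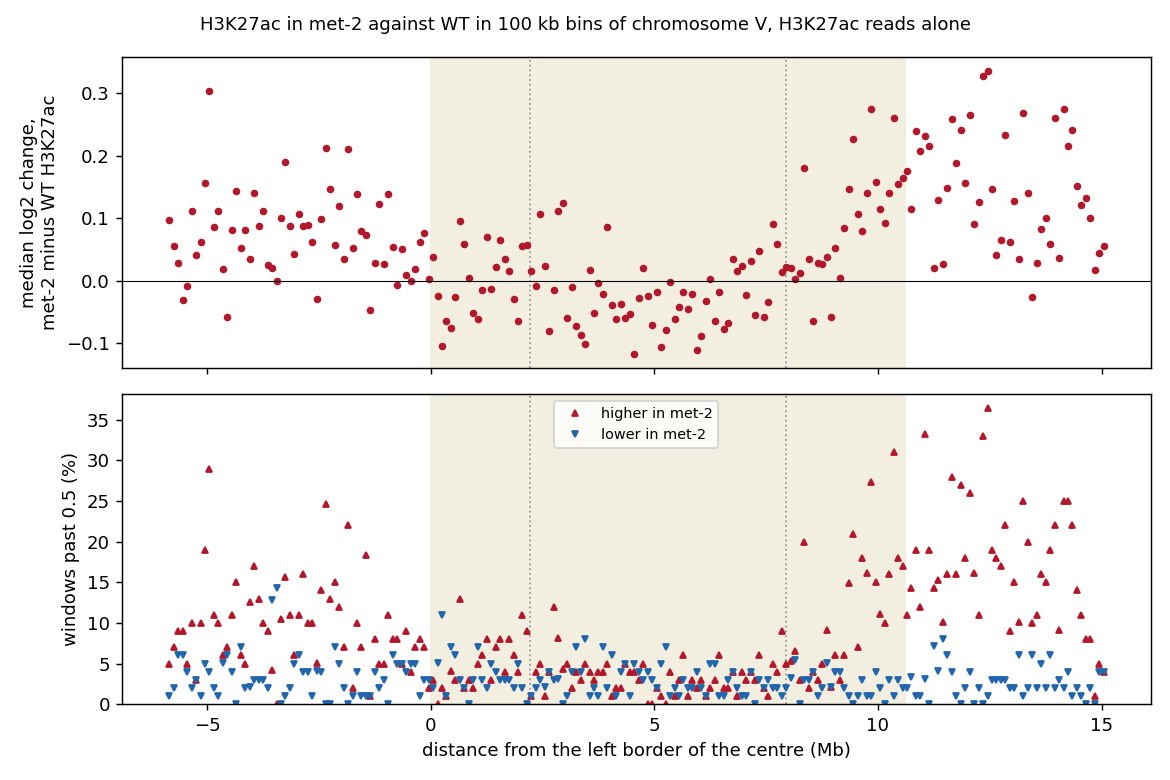
Median log2 change of H3K27ac, met-2 minus WT, per 100 kb bin (upper y axis) and percent of windows past 0.5 in either direction (lower y axis) against the distance from the left border of the centre in Mb (x axis); 1 library per genotype, the centre shaded, dotted lines at the inner borders. From the H3K27ac reads alone, bins lie around 0 over the left flank and inner part. They rise in the right flank, where 11.4% of windows are higher and 2.33% lower.

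The change moved with the level of H3K27ac in WT. Windows called higher in the segment had a median of 87.0 scaled WT H3K27ac reads and 145 in *met-2*, those called lower had 204 and 130, and the others had 170 in both libraries. The WT value enters both the level and the change. The *met-2* library was also less spread over the segment, with a ratio of the 95th to the 5th percentile of 4.55 against 5.60 in WT, and was 23481832 reads deep against 13658228. H3K9me3 had a median of 148 scaled reads at higher windows, 160 at lower and 169 at the others. In the higher windows H3K9me2 was 0.737 times and H3K9me3 0.877 times its median at the others. The controls were 0.707 (WT) and 0.792 (*met-2*) times theirs, so H3K9me2 lay within the range of the controls and H3K9me3 above it. The part of these levels and of depth in the change was not tested.

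The direction of the change in the segment depended on the controls. Over the MNase control of each genotype 24.8% of windows were higher in *met-2* (against 28.2% of all windows) and 40.0% lower (against 36.7%), a split of 38.3% higher among those past 0.5. With TMM scaling it was 47.5% and with DESeq2 size factors 48.5%. Over the controls the median change was -0.203 in the left flank, -0.315 in the inner part and -0.120 in the right flank. In the right flank 28.5% of windows were then higher and 34.8% lower, so the rise there also turned to a fall. The *met-2* control itself had a median of 0.27 over the WT control on the log2 scale in the segment, against 0.17 over all windows. Counting error in the *met-2* control was 20.9% of a count at the median window, against 6.58% in *met-2* H3K27ac.

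The 3 windows with the highest change all lay in the right flank, and all had few H3K27ac reads in WT. At chrV:16204019-16205018 H3K27ac went from 50 reads in WT to 277 in *met-2*, 3.22-fold after scaling (95% exact interval 2.38 to 4.45), with 237 H3K9me2, 339 H3K9me3 and 128 and 29 control reads. At chrV:15588024-15589023 it went from 15 to 89 reads (3.45-fold, 1.98 to 6.42), with 102 H3K9me3 and 27 and 3 control reads. At chrV:16313018-16314017 it went from 14 to 76 reads (3.16-fold, 1.77 to 6.05), with 27 H3K9me2, 95 H3K9me3 and 9 and 1 control reads. In the first of these windows WT H3K27ac was 0.283 times the WT control and *met-2* H3K27ac 1.01 times the *met-2* control. The mutant there thus reached only the level of its control. The same ratios were 0.402 and 3.13 in the second window and 1.13 and 8.01 in the third, on 3 and 1 *met-2* control reads. The intervals of the change cover counting error only. The windows were picked as the highest by the same reads, so the intervals do not test the change.

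The windows with the lowest change were spread over the 3 parts. At chrV:9163084-9164083 in the inner part H3K27ac was 240 reads in WT and 175 in the deeper *met-2* library, 0.424-fold (0.347 to 0.518), with 216 H3K9me2, 303 H3K9me3 and 89 and 39 control reads. At chrV:6181112-6182111 in the left flank it was 42 and 27 reads (0.374-fold, 0.222 to 0.621), with 101 H3K9me2, 61 H3K9me3 and 25 and 0 control reads. At chrV:15249028-15250027 in the right flank it was 45 and 35 reads (0.452-fold, 0.282 to 0.720), with 37 H3K9me2, 231 H3K9me3 and 5 and 12 control reads.

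Most runs of changed windows in the segment were single windows, and the same shares over all windows are not given here. The 601 higher windows formed 508 runs, of which 443 were single windows. The longest run had 7 windows in the right flank, at chrV:15710023-15717022, with 409 WT and 1202 *met-2* H3K27ac reads. The bin that holds it had the highest median change of the segment, 0.275, with 27.3% of its windows higher and 1.01% lower. The 304 lower windows formed 282 runs, the longest of 4 windows at chrV:6179112-6183111 with 135 WT and 99 *met-2* reads. The lowest bin was chrV:10400073-10500071 in the inner part, with a median change of -0.12.

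A block of 3 adjacent windows in the inner part, chrV:12234056-12237055, had extreme counts in all 6 libraries. Its middle window held 34120 H3K9me2, 49345 H3K9me3, 22128 WT H3K27ac, 38437 *met-2* H3K27ac, 11815 WT control and 4581 *met-2* control reads. The 5 windows on either side held 10 to 514 reads. The block took 2.70% to 3.65% of the segment's reads in each library. On average over its windows it was 135 times the genome median for H3K9me2, 145 for H3K9me3, 129 (WT) and 125 (*met-2*) for H3K27ac, and 130 and 159 in the WT and *met-2* controls. Its middle window ranked first of all windows in both H3K27ac libraries.

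Only 12 windows of the whole table (0.0121%) were above 10 times the library median in all 6 libraries, and the 3 of the block were the only ones on chromosome V. The others lay on chromosome I (6), II (1), IV (1) and the mitochondrial genome (1). In the windows of the block the highest library was 1.33 to 1.90 times the lowest in fold over its median, against 7.24 to 14.2 times in 4 adjacent windows of chromosome I. A pair of other windows on chromosome I, at 1.42 and 1.96 times, was as even as the block, and the window on chromosome II was at 2.98 times. The controls without antibody were as high as the marks, and the enrichment of the block as a whole was between -0.24 and 0.50 on the log2 scale over either control. *met-2* H3K27ac over WT was -0.014 in the block. The *gwIs4* array used for sorting carries the *myo-3* promoter, and the *myo-3* gene, which encodes a muscle myosin heavy chain, is on chromosome V in RefSeq's annotation of a later assembly. Whether the block holds that promoter was not tested.

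**Figure D4:**
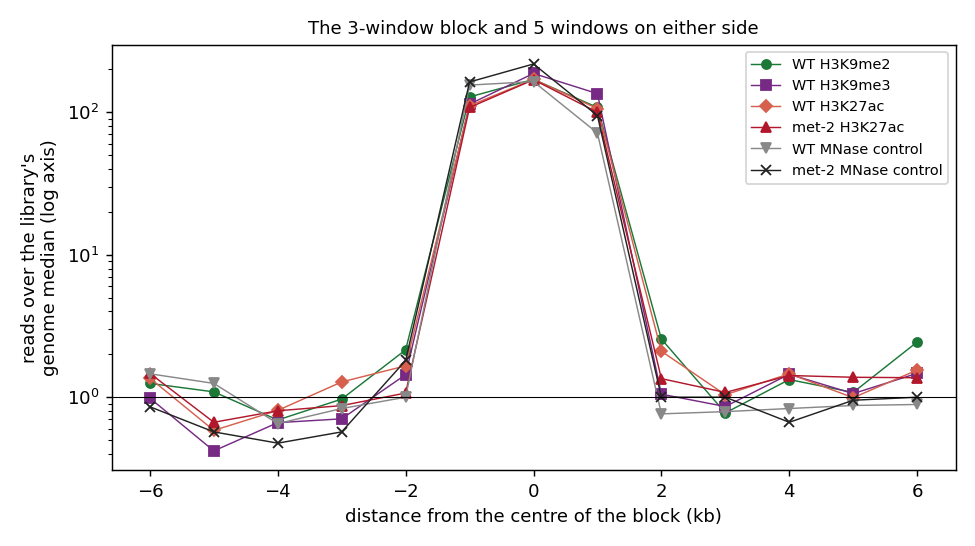
Reads per window over the library's genome median (y axis, log scale) against the distance from the centre of the block in kb (x axis), 1 line per library. All 6 libraries lie between 71.4 and 218 in the 3 windows of the block and between 0.764 and 2.56 in the next window on either side.

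The segment also held a stretch with almost no reads. In the 83 windows of chrV:8814087-8897085 in the inner part, a stretch bounded after its counts were seen, 77 had no read in any library. Together these windows held 66 H3K9me2, 62 H3K9me3, 6 WT H3K27ac, 26 *met-2* H3K27ac, 4 WT control and 4 *met-2* control reads, with no window above 39 in a library. Outside it only 40 windows of the segment had no read, in runs of at most 4, and 31 of them lay in the right flank. In all, 117 of the 10600 windows (1.10%) had no read, against 0.806% of all windows. The sequence of the stretch was not examined.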

How the data were processed

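ChIC-seq was measured in 6 libraries of sorted L3 muscle, 1 per group, grouped by the sample titles. The deposited values are raw read counts per window, which the authors made with QuasR from reads trimmed by Trimmomatic 0.39, mapped on ce10 by bowtie2 and freed of duplicates by Bismark's tool. The windows in the table are about 1 kb, wider than the tiles named in the methods, and how reads mapping to several places were handled is not given in the sources used here. Depth per library ranged from 2475550 to 28519008 reads.

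Counts were divided by the library total, multiplied by the average total of 16977530, and log2 was taken after adding 8, with Python 3.11.15, pandas 2.3.3 and scipy 1.17.1. The 99485 windows with a read were used. With 1 library per group no test was made: intervals of shares are Wilson and of folds exact binomial (95%), cover counting error only for reads, and treat windows as independent. Removal of duplicates can lower very high counts, and whether it used the molecular identifier of the adaptor is not given in the sources used here. TMM (edgeR 4.0.16) and DESeq2 1.42.0 gave only alternative scaling factors. Only the ratio of reads per window and the enrichment call over the WT control were tried on simulated counts.

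Named windows were, by rule, the 3 highest over both controls for each WT mark among windows averaging at least 20 scaled reads, the 3 highest and 3 lowest H3K27ac changes, the 3 longest H3K9me runs and the extreme 100 kb bins. The segment, lists and measures were chosen with earlier results of these data known. Gene lists could not be applied, since no ce10 annotation was used.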

Additional observations from a re-analysis of the deposited data

How the results depend on the processing

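Of 106 recomputed values of 17 results, 45 stayed within the tolerance set for them, 57 with the same sign went beyond it and 4 changed sign. For shares of windows the tolerance was 1.5 times. For ratios and medians it was a 95% interval from counting or from ranks, so narrow for ratios that small differences passed it. TMM and DESeq2 size factors stayed within it but lowered the share of windows enriched over the control of the same genotype. It went from 43.7% to 32.1% and 31.4% for H3K9me3 and from 41.5% to 30.1% and 28.6% for WT H3K27ac. Shares over both controls were not among the values recomputed with these scalings. They went from 13.0% to 8.92% and 8.21% for WT H3K27ac and from 13.4% to 8.73% and 8.04% for *met-2* H3K27ac. With DESeq2 size factors both of these fell beyond the tolerance. H3K9me2 went from 13.0% to 11.8% with either scaling, and H3K9me3 from 14.1% to 9.72% and 9.57%. Depth limits single windows most in the *met-2* control, with a median of 23 reads. No paired analysis was possible because no group had more than 1 library.

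Reads per window in the segment over the arms of V, in the order H3K9me2, H3K9me3, H3K27ac (WT, then *met-2*) and controls (WT, then *met-2*), were 1.19, 1.11, 1.56, 1.45, 1.14 and 1.25 with the study's borders, 1.12, 1.04, 1.53, 1.4, 1.16 and 1.15 as medians, and, chosen after seeing the data, 1.13, 1.00, 1.47, 1.36, 1.12 and 1.19 without the 3-window block. Without the 1% of windows with the most reads they were 1.12 for H3K9me2, 1.46 and 1.36 for H3K27ac and 1.13 and 1.19 for the controls.

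The median log2 enrichment of the segment minus the arms, for H3K9me2, H3K9me3 and the H3K27ac libraries of WT and mutant, was 0.036, -0.112, 0.426 and 0.222 in 10 kb windows, 0.0433, -0.0529, 0.452 and 0.235 with the study's borders, -0.0688, -0.228, 0.287 and 0.244 over the control of the other genotype, and 0.151, 0.0549, 0.578 and 0.459 with no control. The sign thus turned for H3K9me2 under 10 kb windows, the study's borders and no control, and for H3K9me3 with no control. The cause was not tested.

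The share of enriched windows in the same order was 15.7%, 21.6%, 18.9% and 3.41% in 10 kb windows, 18.3%, 23.5%, 21.6% and 10.4% at a threshold of 1, and, chosen after seeing the data, 13.0%, 14.1%, 13.0% and 13.4% over both controls. Over the control of the other genotype it was 25.9% for H3K9me3 and 25.5% (WT) and 42.2% (*met-2*) for H3K27ac. TMM moved the median enrichment over all windows by -0.157, -0.276, -0.279 and -0.0992, and DESeq2 size factors by -0.165, -0.295, -0.316 and -0.124.

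Windows with higher and lower H3K27ac in *met-2* were 0.946% and 0.0946% in 10 kb windows, 0.334% and 0.0382% at a threshold of 1, and 24.8% and 40.0% over the controls. The median change of the segment minus the arms was -0.0978 from the H3K27ac reads alone and -0.162 over the controls.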
